A study of Homo sapiens with 26 samples.

Results

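Small tetraploid (4N) clones of HCT116 were compared with 2N libraries of the same line, 6 of the 26 libraries in the study, taken by their labels and not by any measured value. HCT116 is an established colorectal carcinoma line with a near-diploid karyotype. The 3 small 4N clones came from cells kept for 20 hr in 75 µM blebbistatin, an inhibitor of the myosin that closes the cleavage furrow. After 48 hr without the drug, single cells were grown up by limiting dilution, and the study classed the 4N clones as small or large by cell and nuclear size. The 2N side was 1 library of the parental population, which had not been cloned, and 1 library from each of 2 2N clones. The labels list no drug for these 3 libraries, so cloning after blebbistatin and 4N DNA content cannot be told apart. Each clone descends from 1 cell and was sequenced once, so p values measure a spread between libraries. The fit used all 9 HCT116 libraries. Its standard errors and p values therefore also carry the spread of the 3 large 4N clones, which are outside the comparison.

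A cell that fails to divide keeps a doubled genome and an extra centrosome. In many lines this activates p53, a transcription factor that induces the cell cycle inhibitor CDKN1A, and the Hippo kinases LATS1 and LATS2, which hold back the growth coactivators YAP and TAZ. Clones that go on to proliferate as 4N cells have passed this barrier, and the comparison asks how the transcriptome of small 4N clones stands against that of 2N cells.

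Libraries were strand-specific and made from polyadenylated RNA. The 6 libraries held 32.5 to 37.8 M reads assigned to genes, and 1 read in a gene of 1 kb was worth 0.0254 to 0.0306 FPKM (fragments per kilobase of gene length, scaled for the size of the library, the deposited unit). Mitochondrial genes took 8.003 to 9.31% of the reads in the small 4N clones and 8.77 to 10.1% in the 2N libraries. Of 9 epithelial markers of colorectal lines, 6 reached an FPKM of 1, and their sum over the 9 was 637 to 942 FPKM in small 4N clones, against 686 to 702 FPKM in 2N libraries. VIL1, LGALS4 and CDH17, markers of differentiated gut epithelium, stayed under 0.1 FPKM in every one of the 6 libraries. Of 7 blood cell and 4 endothelial markers, 0 reached 1 FPKM. Of 7 fibroblast markers, 1 (COL1A1) did.

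No gene passed the test. The genes tested were the 12697 that reached 1 FPKM in 3 or more HCT116 libraries. Of these, 0 (0.0%) had an adjusted p under 0.05 with limma and Benjamini-Hochberg adjustment, and the smallest adjusted p was 0.447. At an unadjusted p under 0.05 there were 752 genes (5.92%), 311 higher (2.45%) and 441 lower (3.47%) in the small 4N clones. That count was 424 without the parental library, 465 and 379 without 2N clones 1 and 2, and 1295 when the 6 compared libraries were fitted alone. A limma voom fit on the reads recovered from the FPKM values also called 0 genes, with 718 at an unadjusted p under 0.05. A fit that pooled the spread of all 26 libraries called 20 genes (0.158%), 1 higher and 19 lower. Its log2 differences were the same, and its standard errors also carried the spread of libraries from other cell lines. A pass in that fit therefore adds no HCT116 measurement. The median log2 difference over all genes was -0.00187, with quartiles at -0.14 and 0.12. Values below are therefore descriptions of levels, and log2 differences are small 4N minus 2N on the log2(FPKM + 1) scale with the standard error (SE) of the fit.

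The small clones differed more from one another than the 2N libraries did. The standard deviation of the log2 difference between 2 libraries, over all tested genes, was 0.39, 0.46 and 0.48 for the 3 pairs of small 4N clones, and 0.20, 0.22 and 0.28 for the 3 pairs of 2N libraries. The pair of 2N clones was the one at 0.28. The others set a 2N clone against the uncloned parental library. All 3 small clones lay above all 3 2N libraries for 1240 genes (9.77% of those tested), and all 3 lay below for 1149 genes (9.05%), which together made 18.8% of the genes. Groups that do not overlap in this way are called apart below. Counts of members apart in the lists below stand against these shares of 9.77% higher and 9.05% lower. With a log2 difference of at least 1 in size, 12 genes were apart and higher and 45 were apart and lower.

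PHLDA3, a p53-induced inhibitor of the kinase AKT, had the highest statistic of any protein-coding gene. It lies on the minus strand of chromosome 1, at chr1:201464383-201469237 in GRCh38. Its level was 19.7, 23.1 and 19.3 FPKM in the small 4N clones, against 9.04 FPKM in the parental library and 11.1 and 9.89 FPKM in the 2N clones. The small clones were thus all above the 2N libraries, with a log2 difference of 0.98 ± 0.15 (SE, limma adjusted p = 0.447). The 3 large 4N clones, which share these 2N libraries, had 17.5, 24.1 and 21.0 FPKM.

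SFN encodes 14-3-3 sigma, a p53-inducible protein that holds cells in G2. It stood at 275, 347 and 134 FPKM in the small 4N clones, against 99.2, 96.0 and 91.4 FPKM in the parental library and the 2N clones. The lowest small clone, clone 3, was still above every 2N library, and the log2 difference was 1.28 ± 0.29 (limma adjusted p = 0.589). Without clone 3 the difference was 1.68 and passed the threshold (limma adjusted p = 0.0335).

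The other 6 highest genes by statistic were likewise apart. HIST1H2BD, an H2B histone gene, had 9.48, 5.60 and 10.8 FPKM in the small 4N clones, against 2.28, 3.06 and 2.92 FPKM in the 2N libraries, a log2 difference of 1.32 ± 0.22. EPHA4, an ephrin receptor kinase, had 1.24, 1.06 and 1.02 FPKM in small 4N clones, against 0.298, 0.162 and 0.0851 FPKM in 2N libraries. The small clones sat close together there, just over the level taken as expressed. TOB1, an antiproliferative adaptor of mRNA deadenylation, averaged 46.3 ± 2.04 FPKM in small 4N clones and 30.5 ± 0.646 FPKM in 2N libraries (SD, n = 3 each). SERINC2, a membrane protein, averaged 35.1 ± 0.822 FPKM in small 4N clones and 20.4 ± 3.36 FPKM in 2N libraries (SD, n = 3 each). GALNT3, which starts O-linked glycosylation, averaged 4.25 ± 1.93 FPKM in small 4N clones and 1.25 ± 0.537 FPKM in 2N libraries. It was the gene that passed as higher in the fit of all 26 libraries (limma adjusted p = 0.0304). CLEC11A, a secreted growth factor of the C-type lectin family, averaged 10.4 ± 2.95 FPKM in small 4N clones and 5.69 ± 0.278 FPKM in 2N libraries.

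RHOBTB3 had the widest gap among the 8 lowest genes by statistic. It had 9.41, 2.89 and 9.16 FPKM in the small 4N clones, against 27.2, 50.01 and 26.1 FPKM in the parental library and the 2N clones. Every small clone was below every 2N library, with a log2 difference of -2.19 ± 0.39 (limma adjusted p = 0.447), and it passed in the fit of all 26 libraries (limma adjusted p = 0.0304). ADGRG6, an adhesion G protein-coupled receptor, had 12.1, 7.85 and 6.63 FPKM in small 4N clones, against 20.8, 20.2 and 29.3 FPKM in 2N libraries. LONRF2, a RING finger protein, was at 0.625, 0.250 and 0.249 FPKM in small 4N clones, against 1.58, 1.53 and 2.25 FPKM in 2N libraries.

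The remaining 5 of these genes were also apart. SMURF2, a ubiquitin ligase of the TGF-beta receptor pathway, averaged 23.6 ± 2.26 FPKM in small 4N clones and 46.0 ± 9.01 FPKM in 2N libraries (SD, n = 3 each). ACAP3, a GTPase-activating protein for ARF proteins, averaged 6.82 ± 0.184 FPKM in small 4N clones and 11.5 ± 0.625 FPKM in 2N libraries. MACROD1, a mitochondrial hydrolase of ADP-ribose, averaged 19.7 ± 3.86 FPKM in small 4N clones and 37.5 ± 0.635 FPKM in 2N libraries. SLC39A14, a zinc and iron importer, averaged 20.6 ± 2.30 FPKM in small 4N clones and 33.4 ± 3.24 FPKM in 2N libraries. SYBU, which links mitochondria and vesicles to kinesin, averaged 1.98 ± 0.0839 FPKM in small 4N clones and 3.58 ± 0.114 FPKM in 2N libraries.

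**Figure D1:**
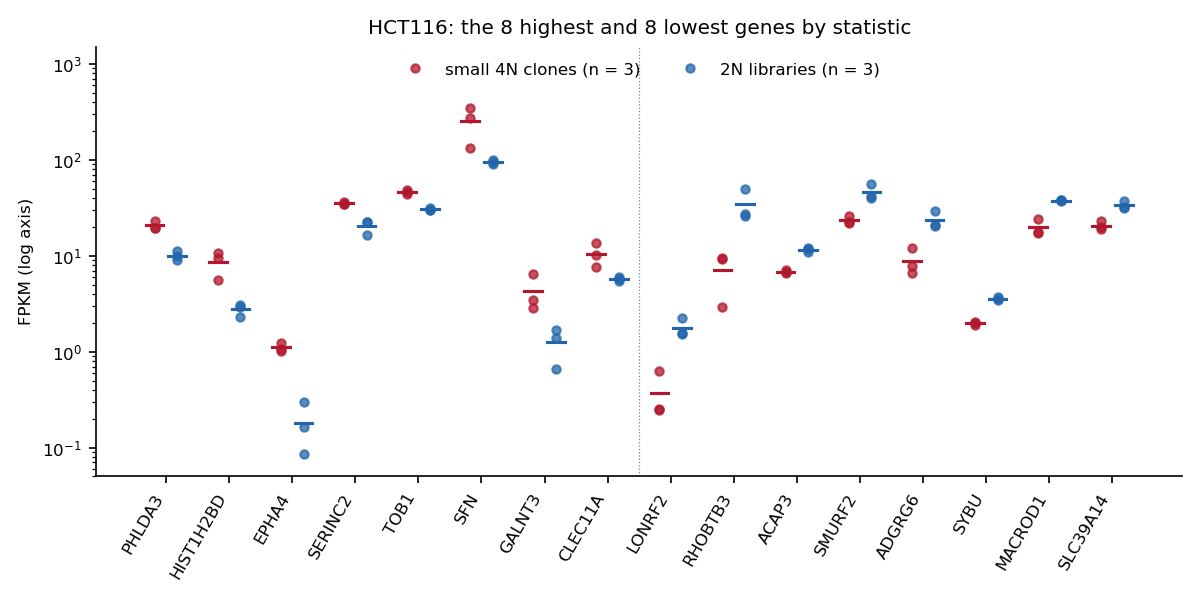
FPKM (log axis) of the 8 highest and 8 lowest protein-coding genes by statistic in each of the 3 small 4N clones (left of each pair) and 3 2N libraries (right), with points for libraries and a bar for the mean. For PHLDA3 the small 4N clones sit between 19.3 and 23.1 FPKM and the 2N libraries between 9.04 and 11.1 FPKM, and none of the 16 genes overlaps between groups.

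Genes induced by p53 stood higher in the small 4N clones as a group. Of 27 p53 targets tested, 14 were apart and higher and 0 apart and lower, 23 had a higher mean, and the median log2 difference was 0.39, with 0 past the threshold. CDKN1A, the p21 inhibitor of cyclin-dependent kinases, had 177, 236 and 242 FPKM in the small 4N clones, against 87.5, 74.9 and 135 FPKM in the parental library and the 2N clones. The lowest small clone was above the highest 2N library, with a log2 difference of 1.16 ± 0.40 (limma adjusted p = 0.808). In the large 4N clones CDKN1A spread from 97.2 to 352 FPKM.

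MDM2, the ubiquitin ligase that degrades p53, had 12.9, 10.8 and 14.6 FPKM in small 4N clones, against 8.16, 8.14 and 9.27 FPKM in 2N libraries. SESN1, a sestrin that restrains mTORC1, had 4.56, 3.15 and 4.48 FPKM in small 4N clones, against 1.98, 2.63 and 2.35 FPKM in 2N libraries. ZMAT3, an RNA-binding p53 target, had 4.39, 4.43 and 6.08 FPKM in small 4N clones, against 2.9997, 3.75 and 2.94 FPKM in 2N libraries. All 3 genes were apart, with log2 differences of 0.53, 0.60 and 0.49 in that order. Other members apart, named after their values were seen, included the death receptor FAS, the repair genes DDB2, XPC and POLH, the nucleotide reductase subunit RRM2B, BTG2, TRIAP1 and PPM1D. Of the 14 members apart, 11 matched a RefSeq promoter (GRCh38.p14). In the 250 bases before the start, 0 of these hold a p53 half-site, a motif found in 5.53% of 27305 RefSeq promoters. With 11 promoters and a window of 250 bases, the count of 0 does not show that these genes lack p53 sites.

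Members differed widely. The lowest p53 target on the list stood at a log2 difference of -0.29 and the highest, CDKN1A, at 1.16. SFN, described above, is not on this list. Averaged over the 27 targets, the level on the log2(FPKM + 1) scale was 4.22, 4.25 and 4.29 in small 4N clones, against 3.82, 3.77 and 4.06 in the parental library and the 2N clones. The large 4N clones had 4.11, 4.59 and 3.66. These are bulk libraries, in which a change in some cells and a change in all cells cannot be told apart, and FPKM does not measure RNA per cell.

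**Figure D2:**
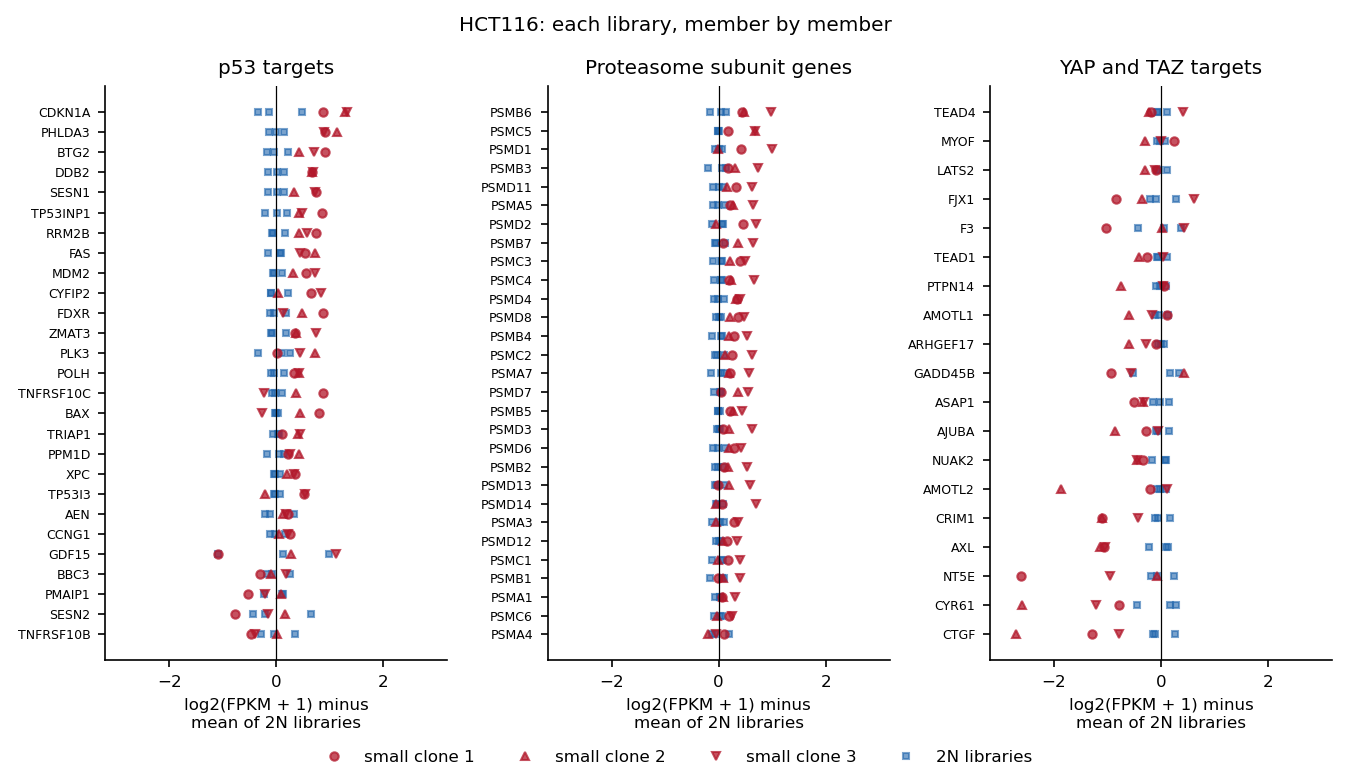
Each library's log2(FPKM + 1) minus the mean of the 3 2N libraries (horizontal axis) for every tested member of the p53 target, proteasome and YAP and TAZ target lists (vertical axis, ordered by difference). Red symbols are the small 4N clones and blue squares the 2N libraries. CDKN1A stands at the top of the p53 panel with a difference of 1.16, and CTGF at the bottom of the YAP and TAZ panel with -1.60.

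Subunits of the proteasome, the complex that degrades ubiquitin-tagged proteins, were the list with the highest share apart. Of 29 subunit genes, 18 were apart and higher and 0 apart and lower, and 28 had a higher mean. The median log2 difference was 0.33, with 0 past the threshold. PSMD4, a ubiquitin receptor of the regulatory particle, had 58.9, 57.6 and 60.9 FPKM in small 4N clones, against 45.6, 49.3 and 43.4 FPKM in 2N libraries. PSMC3, an ATPase of the regulatory particle, had 69.2, 61.2 and 74.0 FPKM in small 4N clones, against 54.8, 48.9 and 53.9 FPKM in 2N libraries. PSMB6, a catalytic subunit of the core, had 75.9, 78.3 and 110.3 FPKM in small 4N clones, against 61.2, 49.7 and 57.2 FPKM in 2N libraries. All 3 genes were apart, and small clone 3 had the highest mean level over the list among the 6 libraries compared. Chaperones, which fold the proteins that the proteasome otherwise removes, had 0 of 26 apart in either direction, with a higher mean for 22 of 26 and a median log2 difference of 0.13.

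Tubulins and histones also leaned upward. Of 14 tubulin genes, 8 were apart and higher and 0 apart and lower (median log2 difference 0.31). TUBB4B, a beta-tubulin of spindles and cilia, had 349, 429 and 284 FPKM in small 4N clones, against 209.9, 227 and 170.0 FPKM in 2N libraries. TUBB6 had 33.2, 44.0 and 31.4 FPKM in small 4N clones, against 25.3, 25.1 and 24.3 FPKM in 2N libraries. Tubulin genes are close copies of one another, and how reads were shared among them is not given in the sources used here. Of 17 histone genes, 5 were apart and higher and 0 apart and lower (median 0.25). HIST1H2AC, an H2A gene, had 4.68, 4.23 and 5.01 FPKM in small 4N clones, against 2.15, 3.21 and 2.56 FPKM in 2N libraries. Most histone messages of dividing cells lack a poly-A tail, and these libraries were selected for one.

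Targets of YAP and TAZ, which act through TEAD factors on DNA, stood lower in the small 4N clones. All 19 tested members had a lower mean, 8 were apart and lower and 0 apart and higher, and the median log2 difference was -0.35, with 0 past the threshold. Of the 8 members apart, 4 matched a RefSeq promoter (GRCh38.p14), and the 250 bases before the start of 2 of them hold GGAATG or its reverse complement CATTCC, the core that TEAD factors bind. They are shown because they place that core next to the values of both genes. The core occurs on either strand in 11.9% of 27305 RefSeq promoters of this length. Capitals mark each match, and the matches of 1 sequence do not overlap.
CTGF (listed in RefSeq as CCN2), chr6:131951373-131951622, minus strand: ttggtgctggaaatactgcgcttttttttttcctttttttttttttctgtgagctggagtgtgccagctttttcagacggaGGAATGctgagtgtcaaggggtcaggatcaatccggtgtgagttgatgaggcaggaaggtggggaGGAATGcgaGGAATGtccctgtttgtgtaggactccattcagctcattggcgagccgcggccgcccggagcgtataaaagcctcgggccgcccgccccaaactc
NUAK2, chr1:205321746-205321995, minus strand: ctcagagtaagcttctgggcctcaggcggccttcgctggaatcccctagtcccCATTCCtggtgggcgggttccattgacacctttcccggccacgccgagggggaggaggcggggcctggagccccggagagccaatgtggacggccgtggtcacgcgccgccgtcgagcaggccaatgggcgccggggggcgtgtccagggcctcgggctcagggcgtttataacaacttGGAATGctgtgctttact
The first bases of the matches lie 169, 104 and 95 bases before the start in CTGF, and 197 and 18 bases before it in NUAK2. A match describes the letters of the window and not binding.

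CTGF, a secreted matricellular protein widely used as a YAP readout, had 2.23, 0.194 and 3.54 FPKM in small 4N clones, against 6.09, 6.25 and 8.47 FPKM in the parental library and the 2N clones. Its log2 difference was -1.60 ± 0.41 (limma adjusted p = 0.656), and clone 2 was the lowest. CYR61, its close relative, had 38.6, 10.2 and 28.6 FPKM in small 4N clones, against 75.5, 49.0 and 82.6 FPKM in 2N libraries, with clone 2 again the lowest. NUAK2, a kinase related to AMPK, had 1.45, 1.26 and 1.27 FPKM in small 4N clones, against 2.30, 1.76 and 2.26 FPKM in 2N libraries.

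AXL, a receptor kinase, had 9.98, 9.46 and 10.2 FPKM in small 4N clones, against 23.7, 18.7 and 24.3 FPKM in 2N libraries, a log2 difference of -1.08 ± 0.28. CRIM1, a transmembrane binder of BMP ligands, had 4.03, 4.04 and 7.06 FPKM in small 4N clones, against 9.02, 9.40 and 11.3 FPKM in 2N libraries. LATS2, the Hippo kinase that is itself a YAP target, was apart by a small margin, at 5.82, 4.88 and 5.66 FPKM in small 4N clones, against 6.03, 5.86 and 6.81 FPKM in 2N libraries. NUAK2 and LATS2 were named after their values were seen. The list average on the log2(FPKM + 1) scale was 2.99, 2.83 and 3.33 in small 4N clones, against 3.62, 3.51 and 3.61 in 2N libraries. In the large 4N clones it was 3.47, 3.76 and 3.76. Members differed there. The large clones had 2.16, 2.39 and 1.47 FPKM of CTGF and 15.5, 17.0 and 22.3 FPKM of CYR61, also below every 2N library. For NUAK2, AXL, CRIM1 and LATS2 the large clones were not all below the 2N libraries.

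Caveolae, flask-shaped pits of the plasma membrane, are built from caveolins and cavins, and 3 of 6 such genes were apart and lower. CAV1, the principal caveolin, lies on chromosome 7 and had 14.5, 33.7 and 47.5 FPKM in the small 4N clones, against 91.9, 137 and 93.0 FPKM in the parental library and the 2N clones. All small clones were below the lowest 2N library, with a log2 difference of -1.84 ± 0.38 (limma adjusted p = 0.499), and the gene passed in the fit of all 26 libraries (limma adjusted p = 0.0304). CAV2, its partner, had 5.21, 16.3 and 11.6 FPKM in small 4N clones, against 22.4, 32.4 and 24.1 FPKM in 2N libraries. Small clone 1 was the lowest for both caveolins. The large 4N clones had 119, 122 and 185 FPKM of CAV1.

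Immediate early genes, which answer growth factor signals within minutes through SRF and other factors already present, were mostly lower. Of 28 tested, 9 were apart and lower and 1 apart and higher, with a median log2 difference of -0.28 and 0 past the threshold. The 1 apart and higher was BTG2, which is also in the p53 list, and 2 members, CTGF and CYR61, are also in the YAP and TAZ list. Of the 10 members apart, 9 matched a RefSeq promoter, and the 250 bases before the start of 2 of them, EGR1 and SRF, hold the CArG box that SRF binds, marked in capitals below. The box occurs in 1.14% of the 27305 promoters. It reads as a box on both strands, and the matches do not overlap.
EGR1, chr5:138465229-138465478, plus strand: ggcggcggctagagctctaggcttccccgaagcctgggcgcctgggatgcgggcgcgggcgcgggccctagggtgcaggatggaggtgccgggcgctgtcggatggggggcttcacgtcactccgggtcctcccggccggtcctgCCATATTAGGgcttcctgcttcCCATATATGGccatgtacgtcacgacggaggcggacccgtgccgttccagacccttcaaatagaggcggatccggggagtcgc
SRF, chr6:43171019-43171268, plus strand: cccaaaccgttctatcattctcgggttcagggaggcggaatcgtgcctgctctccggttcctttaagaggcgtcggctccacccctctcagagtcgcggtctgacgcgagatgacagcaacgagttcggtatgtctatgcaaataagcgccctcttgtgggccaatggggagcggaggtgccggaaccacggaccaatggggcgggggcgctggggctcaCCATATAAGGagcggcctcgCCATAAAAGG
The boxes begin 105 and 83 bases before the start of EGR1, and 30 and 10 bases before that of SRF.

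FOS, a subunit of the AP-1 transcription factor, had 85.8, 32.4 and 46.7 FPKM in the small 4N clones, against 131, 110.5 and 171 FPKM in the parental library and the 2N clones. The groups were apart, with a log2 difference of -1.40 ± 0.30 (limma adjusted p = 0.534), and the large 4N clones were lower still, at 19.1, 19.3 and 19.0 FPKM. JUN, the partner of FOS, had 22.2, 18.6 and 19.0 FPKM in small 4N clones, against 35.5, 24.3 and 36.2 FPKM in 2N libraries. EGR1, a zinc finger factor, had 162, 137 and 146 FPKM in small 4N clones, against 205, 174 and 249 FPKM in 2N libraries, a log2 difference of -0.48 ± 0.28. SRF itself was apart by a narrow margin, at 20.0, 22.5 and 23.5 FPKM in small 4N clones, against 24.8, 25.4 and 24.7 FPKM in 2N libraries, and was named after its values were seen.

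Genes that ERK signalling induces, among them its own brakes and ETS factors, followed the same direction. Of 19 such genes 7 were apart and lower and 0 apart and higher, with a median log2 difference of -0.35 and 0 past the threshold. ETV1, an ETS factor, had 4.22, 1.16 and 2.27 FPKM in small 4N clones, against 5.07, 12.5 and 7.98 FPKM in 2N libraries. DUSP5, a nuclear ERK phosphatase, had 31.4, 45.3 and 58.2 FPKM in small 4N clones, against 128, 70.7 and 152 FPKM in 2N libraries. SPRY4, a sprouty inhibitor of receptor signalling, had 20.6, 13.9 and 29.1 FPKM in small 4N clones, against 32.4, 29.1 and 38.5 FPKM in 2N libraries. All 3 were apart, and for SPRY4 the highest small clone lay just under the lowest 2N library. EGFR, the receptor upstream, was apart and lower at 7.74, 6.87 and 6.21 FPKM in small 4N clones, against 10.4, 9.79 and 10.1 FPKM in 2N libraries.

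NF-kB targets and cytokines had 5 of 11 apart and lower and 0 apart and higher (median log2 difference -0.25). IL18, an epithelial cytokine, had 11.7, 15.8 and 10.2 FPKM in small 4N clones, against 22.4, 17.2 and 17.9 FPKM in 2N libraries. NFKBIA, the inhibitor that NF-kB induces, had 15.7, 13.4 and 12.7 FPKM in small 4N clones, against 16.8, 18.2 and 17.1 FPKM in 2N libraries.

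**Figure D3:**
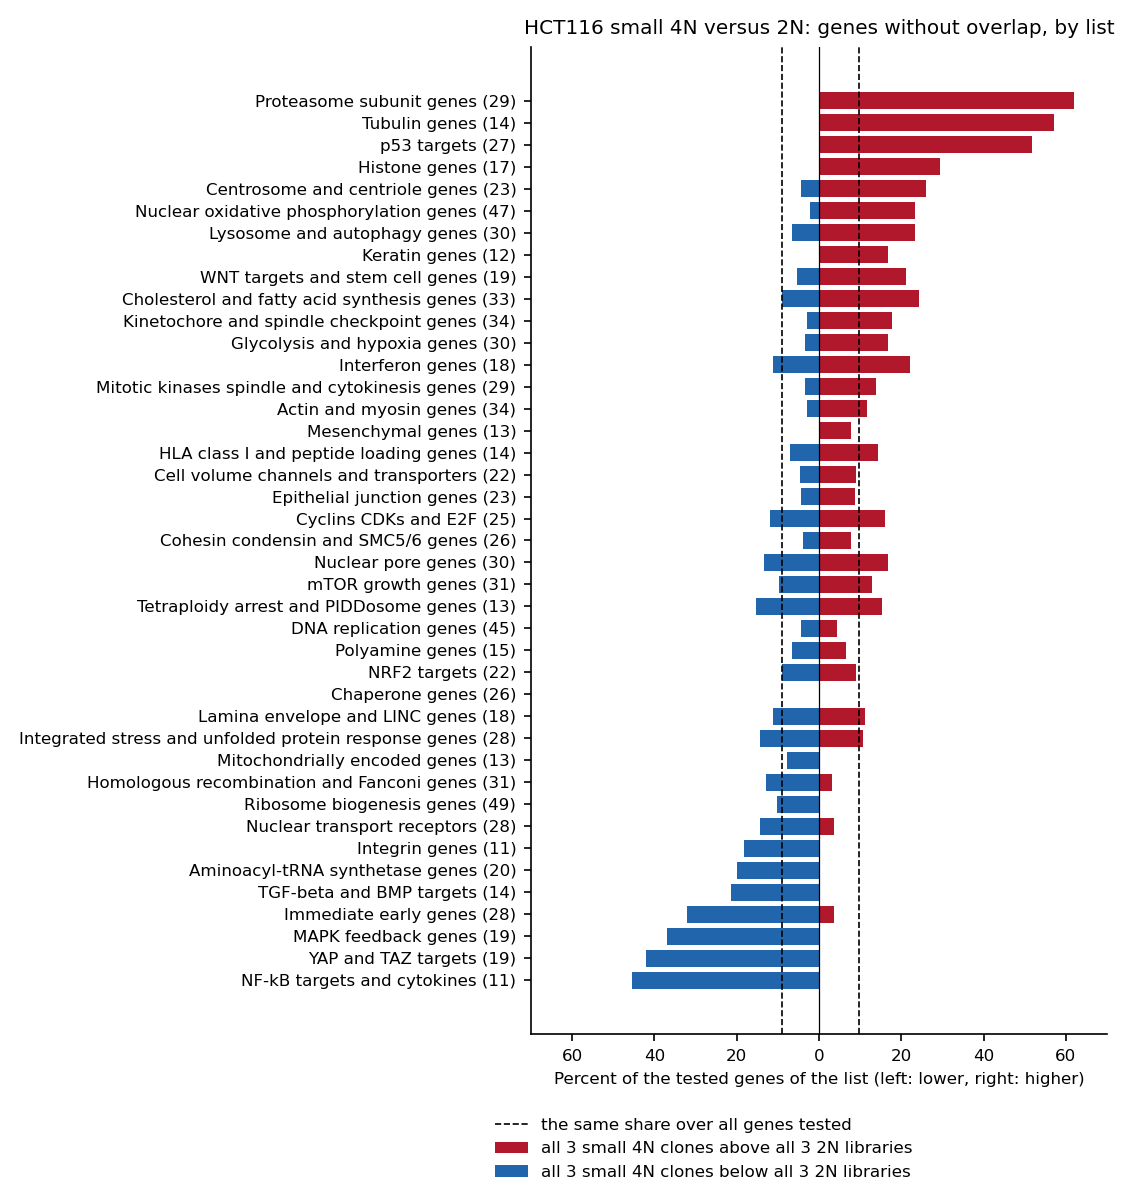
Percent of the tested genes of each list (number in brackets) for which all 3 small 4N clones lay above all 3 2N libraries (red, right) or below them (blue, left), for lists with at least 10 tested genes. Dashed lines mark the shares over all genes, 9.77% higher and 9.05% lower. The proteasome list stands at the top with 18 of 29 higher, and the YAP and TAZ list near the bottom with 8 of 19 lower.

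Medians of the cell cycle lists lay between 0.02 and 0.05, and the shares apart varied, against 9.77% higher and 9.05% lower over all genes. Of 45 DNA replication genes, 2 were apart and higher and 2 apart and lower (median log2 difference 0.04). Of 25 cyclin, CDK and E2F genes, 4 were apart and higher and 3 apart and lower (median 0.03). MKI67, a marker of proliferating cells, had 30.3, 36.1 and 34.6 FPKM in small 4N clones, against 33.9, 28.8 and 35.4 FPKM in 2N libraries, and the groups overlapped. CCND1, the G1 cyclin that YAP and WNT signals induce, averaged 175 ± 51.0 FPKM in small 4N clones and 152 ± 5.84 FPKM in 2N libraries (SD, n = 3 each). Of 34 kinetochore and checkpoint genes, 6 were apart and higher and 1 apart and lower (median 0.05), and of 23 centrosome genes the same numbers, 6 and 1 (median 0.05). CDC20, the activator of the anaphase-promoting complex, had 145, 205 and 128 FPKM in small 4N clones, against 111, 111 and 115 FPKM in 2N libraries. KIF18A, a kinesin on which some aneuploid cells depend, had 8.95, 7.61 and 8.24 FPKM in small 4N clones, against 12.0, 11.7 and 12.0 FPKM in 2N libraries. Both were apart, in opposite directions.

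SAT1, the enzyme that acetylates spermidine and spermine, had 203, 199 and 283 FPKM in small 4N clones, against 255, 281 and 336 FPKM in 2N libraries. The groups overlapped, with a log2 difference of -0.36 ± 0.33.

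Some genes had a level in 1 library that lay far from the rest. A gene was taken to set 1 library apart when its log2(FPKM + 1) lay more than 2 above or below all the other 5. The large 4N clones did not enter this rule or the levels given as elsewhere, and some of them had similar levels. Small clone 1 had 3 such genes, small clone 2 had 8 and small clone 3 had 4, against 0 in the parental library, 1 in 2N clone 1 and 0 in 2N clone 2. Protein-coding genes are named, at most 4 per side. In small clone 1, MYC, the growth-promoting transcription factor, was at 31.0 FPKM, against 183 and 172 FPKM in the other small clones and 188, 128 and 144 FPKM in the 2N libraries. The log2 difference of MYC between the groups was -0.60 ± 0.56, and without small clone 1 it was 0.23. SEC31A, a coat protein of vesicles that leave the endoplasmic reticulum, was at 1.18 FPKM in small clone 1 and between 8.63 and 10.04 FPKM elsewhere. MKX, a homeobox factor of tendon, was at 0.613 FPKM in that clone. It had 9.37 and 5.72 FPKM in the other small clones and 10.6 to 12.7 FPKM in the 2N libraries. The large 4N clones had 1.84, 4.49 and 3.04 FPKM of MKX, at least 202 FPKM of MYC and at least 8.78 FPKM of SEC31A.

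Small clone 2 was set apart mostly by genes above the rest. ANXA10, a gastric annexin, was at 42.5 FPKM there, against 0.112 and 0.926 FPKM in the other small clones and at most 2.51 FPKM in the 2N libraries. KRT7, a keratin that colonic epithelium usually lacks, was at 45.8 FPKM, against 0.292 and 0.273 FPKM in the other small clones and at most 3.71 FPKM in the 2N libraries. NDRG1, a hypoxia-responsive gene, was at 154 FPKM in this clone and between 14.5 and 21.4 FPKM elsewhere. The ERK phosphatase gene DUSP6 was at 10.8 FPKM in this clone and between 53.8 and 97.3 FPKM elsewhere. The large 4N clones had 2.09, 1.32 and 46.3 FPKM of KRT7 and 9.49, 23.1 and 8.62 FPKM of DUSP6. They had at most 0.681 FPKM of ANXA10 and at most 31.6 FPKM of NDRG1.

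Small clone 3 lacked much of 3 messages. IFITM2, an interferon-induced membrane protein with close copies whose reads could be shared with it, was at 2.67 FPKM, against 27.1 and 31.0 FPKM in the other small clones and 38.4 to 52.5 FPKM in the 2N libraries. SH3BGRL, a small protein that binds SH3 partners, was at 1.33 FPKM in this clone and between 16.5 and 25.8 FPKM elsewhere. CYP24A1, which inactivates vitamin D, was at 8.09 FPKM, against 36.4 and 41.2 FPKM in the other small clones and 89.6 to 117 FPKM in the 2N libraries. Of the 2N libraries, clone 1 alone had such a gene, CDH1, the epithelial cadherin, at 1.92 FPKM, with 10.8 to 23.9 FPKM in the small clones and 17.7 and 14.9 FPKM in the other 2N libraries.

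**Figure D4:**
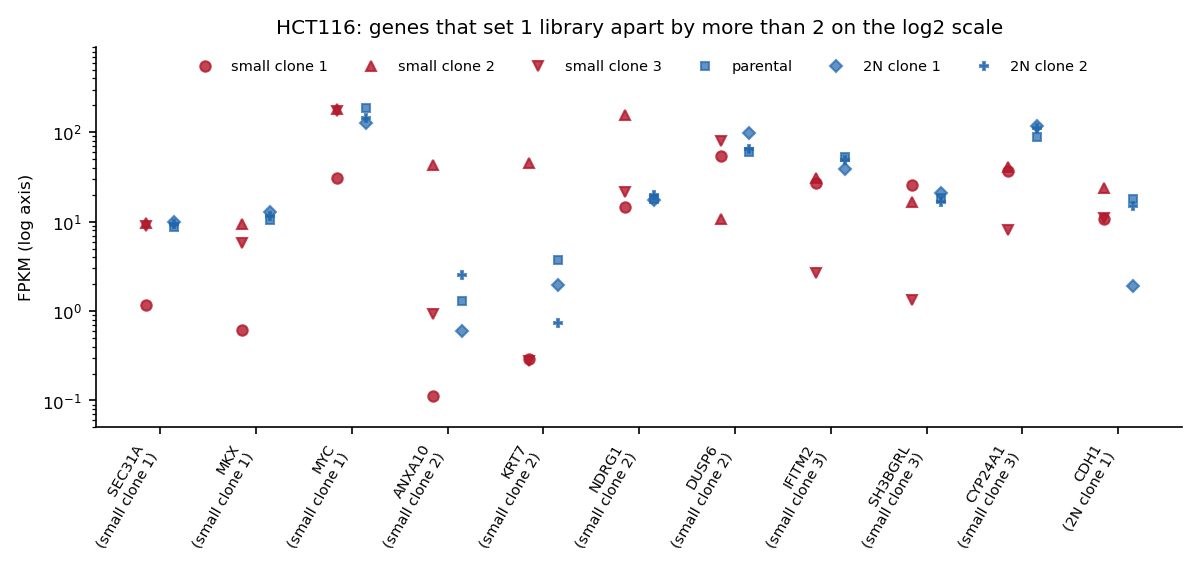
FPKM (log axis) in each of the 6 libraries for the named genes that set 1 library apart, with that library in brackets under the gene. Red symbols are the small 4N clones and blue symbols the 2N libraries. KRT7 stands at 45.8 FPKM in small clone 2 and MYC at 31.0 FPKM in small clone 1, each far from the other 5 libraries.

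Medians of expression by chromosome were compared between libraries. For each library the median log2 difference of a chromosome's genes from the mean of the 2N libraries (for a 2N library, from the other 2N libraries) was taken relative to the library's median over all genes. Of 69 pairs of a small clone and a chromosome, 2 had a median of at least 0.2 in size, both on chromosome 15, over 187 genes. They were -0.45 in small clone 3 and -0.23 in small clone 2. Chromosome 8 in small clone 3 lay just inside the limit, at -0.19 over 258 genes. On chromosome 15, 2N clone 2 stood at 0.38 relative to the parental library and 2N clone 1. Part of the mean that the small clones were set against there was thus itself raised. Relative to the parental library and 2N clone 1 alone, chromosome 15 was at 0.02 in small clone 1, -0.10 in small clone 2 and -0.32 in small clone 3. The median then stayed beyond 0.2 in small clone 3 only. DNA copy number was not measured here. Each of the p53 target, proteasome and MAPK feedback lists has 1 tested member on chromosome 15, and the tubulin, YAP and TAZ and immediate early lists have 0.

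**Figure D5:**
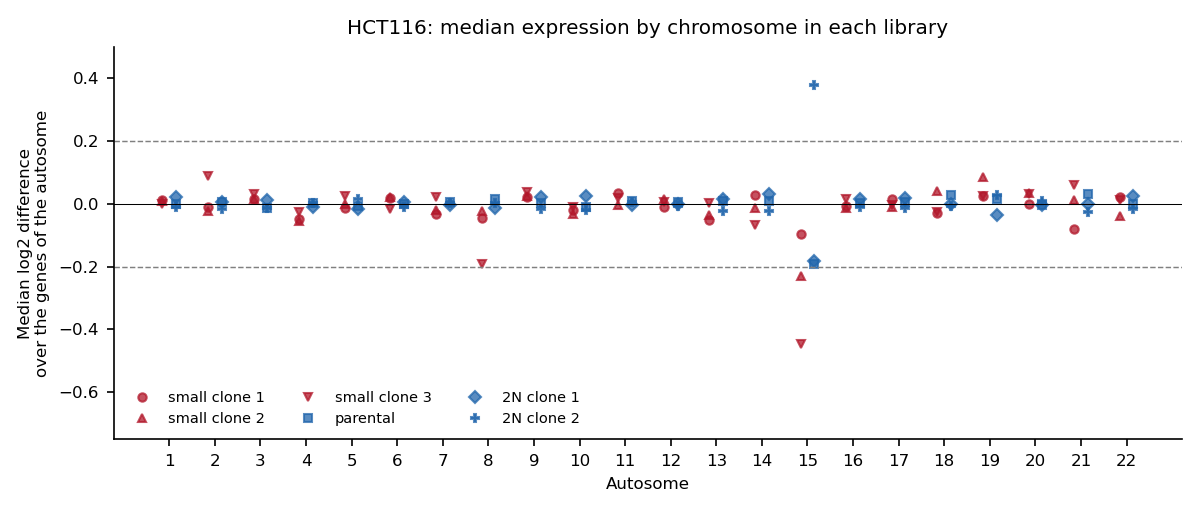
Median log2 difference (vertical axis) over the genes of each autosome (horizontal axis) in the 3 small 4N clones (red) and the 3 2N libraries (blue), each relative to its own median over all genes. Dashed lines mark 0.2 in either direction. Chromosome 15 stands at -0.45 in small clone 3 and 0.38 in 2N clone 2.

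DLD1, a second near-diploid colorectal line, had 3 small 4N clones and 3 2N libraries of the same kinds, with 4N cells made by dihydrocytochalasin B in place of blebbistatin. Line and drug therefore cannot be told apart. A test of the HCT116 difference minus the DLD1 difference over 13821 genes called 2 (0.0145%), VIL1 and LAGE3, with 1134 (8.2%) at an unadjusted p under 0.05. Both calls rest on values in DLD1. VIL1, an actin bundler of the brush border, was at or under 0.0213 FPKM in the 6 HCT116 libraries. In DLD1 it had 8.24, 8.99 and 5.22 FPKM in small 4N clones, against 1.81, 0.371 and 0.807 FPKM in 2N libraries, and the difference between lines was -2.12 ± 0.29 (limma adjusted p = 0.0151). LAGE3, a subunit of a tRNA-modifying complex, averaged 43.9 FPKM in small 4N clones and 34.6 FPKM in 2N libraries of HCT116, with overlap. In DLD1 it had 3.89, 2.76 and 5.21 FPKM in small 4N clones, against 12.7, 19.4 and 13.4 FPKM in 2N libraries, and the difference between lines was 2.05 ± 0.29 (limma adjusted p = 0.0163). Leaving out the parental HCT116 library or HCT116 2N clone 1 left 0 calls.

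In DLD1, 7.97% of all genes were apart and higher and 8.34% apart and lower. The p53 targets had 14 of 27 apart and higher in HCT116 and 4 of 27 in DLD1, with medians of 0.39 and 0.09. Proteasome genes had 18 of 29 apart and higher in HCT116, whereas in DLD1 8 of 29 were apart and lower, with medians of 0.33 and -0.12. Tubulins had 8 of 14 apart and higher in HCT116 and 7 of 14 apart and lower in DLD1. YAP and TAZ targets were lower in both lines, 8 of 19 apart in HCT116 and 6 of 20 in DLD1, with medians of -0.35 and -0.33. MAPK feedback genes (medians -0.35 and -0.18), NF-kB targets (-0.25 and -0.34) and caveolar genes (-0.23 and -0.41) also had negative medians in both HCT116 and DLD1. However, 0 of the 19 NF-kB targets tested in DLD1 were apart, against 5 of 11 in HCT116. Immediate early genes had 9 of 28 apart and lower in HCT116. In DLD1, 1 of 29 was apart and lower and 2 apart and higher (medians -0.28 and -0.07). Over these lists 0 genes passed the test of the difference between the lines, and the lists as such were not tested.

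Among the named genes, FOS had 25.9, 15.7 and 25.7 FPKM in small 4N clones of DLD1, against 15.6, 10.995 and 9.73 FPKM in its 2N libraries, apart in the direction opposite to HCT116. The difference between lines was -2.23 ± 0.40 and did not pass (limma adjusted p = 0.0647). PHLDA3 was at or under 0.334 FPKM in every one of these DLD1 libraries, and CDKN1A was between 1.34 and 12.4 FPKM there. Over the 13821 genes, 104 were apart and higher in both lines, 8.01% of the 1298 in HCT116 and 9.44% of the 1102 in DLD1, and 102 of the 1298 were apart and lower in DLD1. Of genes apart and lower, 111 were shared, 9.19% of the 1208 in HCT116 and 9.64% of the 1152 in DLD1, and 77 of the 1208 were apart and higher in DLD1.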

How the data were processed

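The authors deposited 1 table of FPKM values for 58735 genes in 26 libraries. Per the submitters' processing notes, fastp, HISAT2 2.0.5, featureCounts 1.5.0-p3, DESeq2 and the build GRCh38 were used. Each FPKM value came back to a whole number of reads to a tolerance of 0.01 (100% of genes in each library), and these reads gave the depths and entered voom. The 12697 genes kept had reached 1 FPKM in 3 or more of the 9 HCT116 libraries. Their log2(FPKM + 1) was fitted with limma 3.58.1 in R 4.3.3 with an intensity trend, with means for small 4N, large 4N and 2N (6 residual and 3.67 prior degrees of freedom). Tests were two-sided, with Benjamini-Hochberg adjustment at 0.05. The difference from DLD1 was a contrast in 1 fit of both lines (13821 genes).

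Named genes were the 8 most extreme moderated statistics per direction among protein-coding genes outside chromosome Y, since none passed, up to 4 per list by adjusted p, up to 4 per side and library among those that set 1 library apart, genes past the test between lines, and FOS, EGR1, CAV1, SAT1, CDKN1A, CCND1, MYC and MKI67. Some genes that this rule takes are not reported here. The libraries, the 45 gene lists and the rule were chosen with earlier results of these data known. Older symbols were matched through a gene name table. The procedure was tested on simulated data. Tables and figures used Python 3.11.15 with numpy 2.4.6, pandas 2.3.3 and matplotlib 3.10.9. Floors and depths cover counting error only.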

Additional observations from a re-analysis of the deposited data

Results flagged for a closer look

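The difference between small 4N clones and 2N libraries differed between HCT116 and DLD1 for 2 genes by the test of that difference. VIL1 stood at -2.12 (log2 HCT116 difference minus DLD1 difference, limma adjusted p = 0.0151), with 3 of 3 small DLD1 clones above all 2N DLD1 libraries and a level near 0 in HCT116. LAGE3 stood at 2.05 (limma adjusted p = 0.0163), with 3 of 3 small DLD1 clones below all 2N DLD1 libraries and overlap in HCT116. Groups of 3 are too small for a test of single outlying libraries.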

How the results depend on the processing

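The count of 0 genes past the threshold became 1 without a filter on low values and 20 in the fit of all 26 libraries, and lay between 0 and 1 when 1 library was left out. The 1 gene was AL158212.1 without small clone 1 (limma adjusted p = 0.00619) and SFN without small clone 3. With the replicate block it stayed 0. The labels do not say that a clone number marks anything shared. The deviations of same-numbered small and 2N clones correlated at 0.13 and 0.08, and those of clones with different numbers at -0.06 and -0.09. The 2389 genes apart became 3912 without a filter and 1418 at a mean FPKM of 5 or more, and 2977 to 4553 when 1 library was left out, where fewer libraries are easier to separate. The count of 2 between HCT116 and DLD1 was 1 at a mean FPKM of 1 or more in both lines, 12 in the fit of all 26 libraries, 8 with the replicate block, and 0 to 16 when 1 library was left out, the highest without DLD1 small clone 1. LAGE3 was not among the calls with the replicate block (limma adjusted p = 0.118), and VIL1 was not among the 3 with a pseudocount of 0.1 (limma adjusted p = 0.0986) and was under the filter at a mean FPKM of 1. The 2 shifts by chromosome became 1 when the mean FPKM required was 1 and 3 with a pseudocount of 0.1. The 16 genes that set a library apart became 92 with a pseudocount of 0.1 and 181 with a gap of 1. All 16 genes named by statistic kept their sign in every alternative, and 7 passed in at least 1. They were chosen as extreme in these same libraries, and their groups do not overlap. Leaving out 1 library could therefore not reverse a sign. SFN passed only without small clone 3, and the others that passed did so only in the fit of all 26 libraries. Of the genes near 0, CCND1 was at -0.13 with the replicate block. Leaving out 1 library, CCND1 lay between -0.044 and 0.39, MYC between -1.03 and 0.23, and MKI67 between -0.043 and 0.12. The cause of these shifts was not tested. The p53 target, proteasome, tubulin, YAP and TAZ, immediate early and MAPK feedback medians kept their sign in all 19 alternatives. Fits of the compared libraries alone, of all 26, without the intensity trend or without a large clone leave log2 differences unchanged. They could therefore not change a median. Most p53 target, proteasome and tubulin genes were apart and higher, so leaving out 1 library could not turn those medians negative. The medians ranged from 0.32 to 0.49 for p53 targets, -0.41 to -0.19 for immediate early and -0.40 to -0.20 for MAPK feedback genes. With 3 libraries a group, 1-library levels near 0.03 FPKM rest on about 1 read in a gene of 1 kb.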

Other observations

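Over all genes tested, 9.77% were apart and higher in the small 4N clones and 9.05% apart and lower. Of 47 nuclear genes of oxidative phosphorylation, 11 were apart and higher and 1 apart and lower (median log2 difference 0.10). NDUFA8, a subunit of complex I, had 71.5, 65.6 and 82.6 FPKM in small 4N clones, against 54.2, 54.3 and 51.3 FPKM in 2N libraries. Of 13 genes encoded in mitochondria, 11 had a lower mean and 1 was apart and lower. Of 33 genes of cholesterol and fatty acid synthesis, 8 were apart and higher and 3 apart and lower. The sterol regulator SREBF1 was among the lower ones, at 49.2, 51.1 and 35.5 FPKM in small 4N clones, against 68.4, 62.8 and 73.5 FPKM in 2N libraries. Of 30 glycolysis and hypoxia genes, 5 were apart and higher and 1 apart and lower, and small clone 2 had the highest level of BNIP3, a mitophagy receptor, at 13.0 FPKM, against 7.14 and 6.996 FPKM in the other small clones and 5.51 to 5.56 FPKM in the 2N libraries.

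Of 19 WNT targets and stem cell genes, 4 were apart and higher and 1 apart and lower (median log2 difference 0.06). The shares over all genes, 9.77% higher and 9.05% lower, are the ones to set beside the counts in this paragraph. NOTUM, a secreted enzyme that inactivates WNT ligands, had 5.89, 3.55 and 4.49 FPKM in small 4N clones, against 8.98, 9.75 and 8.24 FPKM in 2N libraries. DKK1, a secreted WNT antagonist, had 78.3, 78.3 and 83.2 FPKM in small 4N clones, against 61.6, 19.4 and 39.2 FPKM in 2N libraries. Both were apart, in opposite directions, and EPHB3 and NKD1 were apart and higher. KRT19, a keratin of simple epithelia, had 981, 793 and 530.3 FPKM in small 4N clones, against 442, 449 and 412 FPKM in 2N libraries, and was apart and higher. Of 14 genes of HLA class I and peptide loading, 2 were apart and higher and 1 apart and lower (median 0.02). TAP1, which carries peptides to HLA class I, was apart and higher at 15.6, 14.3 and 13.2 FPKM in small 4N clones, against 9.57, 10.3 and 9.19 FPKM in 2N libraries. Its partner TAP2 was apart and lower, at 3.78, 4.71 and 4.07 FPKM in small 4N clones, against 5.07, 5.21 and 5.10 FPKM in 2N libraries.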
